A study of Mus musculus with 6 samples.

Results

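The genes described here are the osteoclast and RANKL system genes, chosen by name: Acp5, Ctsk, Atp6v0d2, Oscar, Nfatc1, Csf1, Tnfsf11, Tnfrsf11a and Tnfrsf11b. All 9 were listed in the table of 23718 genes. RNA was sequenced from regions of the mouse incisor that were freed from tissue sections with a laser. Regions of mesenchymal stem cells (MSCs) were taken from Gli1-CreER;tdT mice in 3 samples, and regions of transit amplifying cells (TACs) from Axin2-CreER;tdT mice in 3 samples, all 1 month old and labelled C57BL/6, although the methods give a mixed background. In these mice tamoxifen, given 1 day before collection, lets a Cre enzyme made in Gli1 or in Axin2 expressing cells switch on a red fluorescent protein, so the groups differ in the driver line as well as in the region. TACs are the dividing progeny of the MSCs. A captured region can also hold unlabelled cells. The methods give 3 mice in each group, but neither they nor the labels tie each sample to its own animal. Where samples share an animal, the p-values measure only the spread between these samples, which may be technical.

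Osteoclasts are multinucleated cells of the macrophage lineage that dissolve bone and the mineralized tissue around a growing tooth. They form when precursors receive CSF1, a survival and growth signal, and RANKL (Tnfsf11), which binds the receptor RANK (Tnfrsf11a) on the precursor. Osteoprotegerin (Tnfrsf11b) is a secreted decoy receptor that binds RANKL and keeps it from RANK. Downstream of RANK, NFATc1 switches on the resorption genes, and OSCAR is a receptor that adds a costimulatory signal. Stromal and bone-forming cells usually make the ligands and the decoy, whereas RANK, OSCAR and the resorption genes usually mark the osteoclast lineage.

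Replicate 3 of both groups stood apart from replicates 1 and 2. Estimated read numbers were 20203159 to 25567244 in replicates 1 and 2, 59793645 in MSC replicate 3 and 108156380 in TAC replicate 3. In spite of this depth, 43.1% of the listed genes had no read in MSC replicate 3 and 28.3% had none in TAC replicate 3, against 6.89% to 8.36% in the other libraries. In MSC replicate 3, 2250 genes had no read that had at least 10 in each of the other 5 libraries, so a missing read there cannot be taken as absence. This count was not made for TAC replicate 3, where a missing read cannot be taken as absence either. Where 3 values are given for a group, they are those of replicates 1, 2 and 3 in that order. Values are read numbers scaled per library, in a normalized unit that can be compared between libraries for 1 gene. The dental mesenchyme markers Msx1, Pax9, Prrx1 and Vim had reads in all 6 libraries, and so did the enamel matrix gene Amelx, at 80.6 to 2503. The levels of Gli1, which drives the MSC reporter, overlapped between the groups, as did those of Axin2.

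Ctsk and Acp5 encode the enzymes most used to recognize osteoclasts, so the DNA before their start sites is shown. The windows run from 250 bases before to 50 bases after each RefSeq start, on GRCm38.p6, the assembly called mm10. RefSeq gave 1 start for Ctsk and 3 for Acp5, and the table counts reads per gene, so the start in use cannot be read from it. Capitals mark the NFAT core GGAAA and the PU.1 core GAGGAAG, 2 motifs bound by factors of the osteoclast lineage, together with the MITF E-box CATGTG, each on either strand.
Ctsk, chr3:95498960-95499259, plus strand: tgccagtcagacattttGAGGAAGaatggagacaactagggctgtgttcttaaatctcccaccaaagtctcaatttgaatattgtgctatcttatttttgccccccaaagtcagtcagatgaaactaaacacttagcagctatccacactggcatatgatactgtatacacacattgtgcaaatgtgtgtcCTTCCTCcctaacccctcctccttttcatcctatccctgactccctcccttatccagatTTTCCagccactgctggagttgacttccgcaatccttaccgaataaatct
Acp5, chr9:22135697-22135996, minus strand: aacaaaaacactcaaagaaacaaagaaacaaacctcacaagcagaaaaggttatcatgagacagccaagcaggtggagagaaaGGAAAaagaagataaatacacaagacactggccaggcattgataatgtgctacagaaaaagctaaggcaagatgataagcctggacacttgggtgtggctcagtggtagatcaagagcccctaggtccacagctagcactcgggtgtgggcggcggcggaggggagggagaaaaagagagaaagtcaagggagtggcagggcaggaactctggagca
Acp5, chr9:22131816-22132115, minus strand: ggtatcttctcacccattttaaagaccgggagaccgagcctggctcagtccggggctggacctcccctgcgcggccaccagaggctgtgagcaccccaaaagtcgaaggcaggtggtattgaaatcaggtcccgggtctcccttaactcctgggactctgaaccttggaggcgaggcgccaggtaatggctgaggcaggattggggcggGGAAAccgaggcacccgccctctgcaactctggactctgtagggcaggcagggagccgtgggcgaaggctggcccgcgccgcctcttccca
Acp5, chr9:22130549-22130848, minus strand: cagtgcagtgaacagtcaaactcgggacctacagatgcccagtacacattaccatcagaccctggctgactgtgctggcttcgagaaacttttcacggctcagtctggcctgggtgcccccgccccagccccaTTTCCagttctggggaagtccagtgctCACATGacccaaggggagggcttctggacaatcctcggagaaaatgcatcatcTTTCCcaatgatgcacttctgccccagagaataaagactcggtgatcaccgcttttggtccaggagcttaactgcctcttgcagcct

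The Ctsk window held 2 PU.1 cores, a motif present in 13.6% of 32851 promoter windows of the same length, and 1 NFAT core, present in 61.3% of them. Each Acp5 window held 1 or 2 NFAT cores and no PU.1 core. The MITF E-box, present in 14.2% of windows, occurred once, in the last of the Acp5 windows. The AP-1 motif TGANTCA, present in 7.81% of windows, was in none of these 4. The motifs did not overlap each other, and a match describes the letters only. Of the 9 genes, 6 had a window in the promoter table. Atp6v0d2, Nfatc1 and Tnfrsf11b had none.

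Tnfrsf11b, the decoy receptor osteoprotegerin, separated the groups most clearly among the ligands and their decoy. Its normalized values were 10.6, 6.69 and 5.40 in the 3 MSC libraries, from 397, 230 and 811 estimated reads. They were 2.34 and 1.56 in TAC replicates 1 and 2, from 106 and 64 reads, and TAC replicate 3 had no read. The missing read in TAC replicate 3 cannot be taken as absence, and it enters the TAC mean and the difference within replicate 3. All 3 MSC libraries lay above all 3 TAC libraries. The MSC libraries averaged 7.57 ± 2.71 (SD, n = 3) and the TAC libraries 1.30 ± 1.19 (SD, n = 3), which made the MSC level 5.81 times the TAC level. The log2 fold change, TAC minus MSC, was -2.02 (SE 0.64), with an unadjusted p of 0.0147 and an adjusted p of 0.274 in limma, so Tnfrsf11b did not pass the adjusted threshold. Within replicates 1 and 2 it amounted to -1.69, within replicate 3 to -2.67. Tnfrsf11b passed when the fit held replicates 1 and 2 only (adjusted p 0.00130), but 44.2% of all genes tested passed there. It also passed when replicate 3 was entered as a batch (adjusted p 0.0261), as did 11.8% of genes tested. Its adjusted p lay between 0.00130 and 0.682 in the 16 alternatives. The summed level of 8 smooth muscle and pericyte markers was 900 to 1561 in MSC and 152 to 182 in TAC, and its part in the Tnfrsf11b result was not tested. In bulk samples such as these, fewer cells of a type and less RNA per cell cannot be told apart. The gene lies on chromosome 15, 54250619 to 54278484, minus strand.

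**Figure D1:**
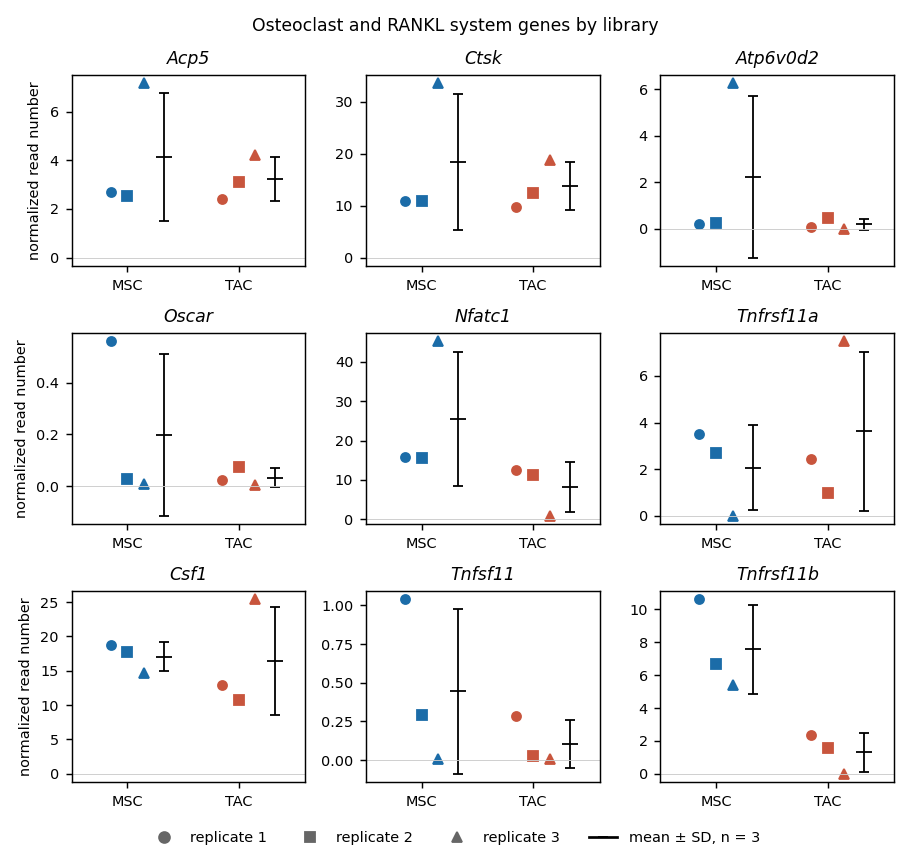
Normalized read number (linear axis) of the 9 genes in each library, with MSC in blue and TAC in red, replicates as circles, squares and triangles, and the mean ± SD over 3 samples in black. For Tnfrsf11b the MSC libraries sit at 5.40 to 10.6, above the TAC libraries, while replicate 3 (triangles) of MSC sits far from the rest for Atp6v0d2, that of TAC for Tnfrsf11a, and both for Nfatc1.

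Tnfsf11, which encodes RANKL itself, was barely detected in either region. Its values were 1.04 and 0.290 in MSC replicates 1 and 2, from 38 and 9 reads, and 0.285 in TAC replicate 1, from 12 reads. MSC replicate 3, TAC replicate 2 and TAC replicate 3 had no read, which allows up to 3 reads, or normalized values of up to 0.0266, 0.0959 and 0.0152, since a value is the read number plus 1 divided by a size factor. This limit covers counting error only. The group ranges overlapped, and the mean over all samples was under the minimum of 1 required for testing. With no filter, its log2 fold change was -0.34 (limma adjusted p 0.804). With so few reads, a difference in RANKL between the regions was not detectable. The gene lies on chromosome 14, 78277445 to 78308043, minus strand.

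RANKL and its decoy act against each other, so their levels were also read as a ratio within each library. The log2 of (Tnfsf11 + 1)/(Tnfrsf11b + 1) was -2.51, -2.58 and -2.67 in the MSC libraries. The TAC libraries had -1.38, -1.32 and 0.0, the last from a library with no read of either gene. The MSC libraries averaged -2.58 ± 0.0808 (SD, n = 3), and every TAC library lay above them. The difference, TAC minus MSC, was 1.68, with an exact two-sided permutation p of 0.1, the smallest that 3 samples against 3 can give. The size of the difference depended on the number added to each value, at 1.92 with 0.5 and 0.903 with 5. The difference is that of Tnfsf11, -0.34, minus that of Tnfrsf11b, -2.02, so it repeats the Tnfrsf11b difference and gives no information on RANKL itself, and the 0.0 in TAC replicate 3 is set by the added 1.

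Csf1, the growth factor of macrophages and osteoclast precursors, was the most highly read ligand, and its direction depended on the libraries. Its normalized values were 18.8, 17.8 and 14.6 in the 3 MSC libraries, against 12.9, 10.8 and 25.4 in the TAC libraries, from 449 to 6693 reads. TAC replicates 1 and 2 lay below all MSC libraries, and TAC replicate 3 lay above them all. The MSC libraries averaged 17.1 ± 2.15 (SD, n = 3) and the TAC libraries 16.4 ± 7.88 (SD, n = 3), with a log2 fold change of -0.14 (SE 0.40, limma adjusted p 0.940). In replicates 1 and 2 the log2 fold change was -0.59 and passed the threshold in a fit of those libraries alone (adjusted p 0.0116), as did 44.2% of genes tested. In replicate 3 it was 0.75. Csf1 lies on chromosome 3, 107741048 to 107760469, minus strand.

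Tnfrsf11a, which encodes the receptor RANK, had values of 3.49 and 2.69 in MSC replicates 1 and 2 and no read in MSC replicate 3. It had values of 2.43, 0.983 and 7.48 in TAC replicates 1, 2 and 3. The read numbers were 130 and 92 in MSC replicates 1 and 2, 110 and 40 in TAC replicates 1 and 2 and 1973 in TAC replicate 3. The lowest and the highest library were both replicate 3, and the groups overlapped. Over all samples Tnfrsf11a differed by a log2 fold change of 0.60 (SE 0.82, limma adjusted p 0.847). It differed by -0.64 in replicates 1 and 2, 3.08 in replicate 3 and -0.076 without MSC replicate 3. Its position is chromosome 1, 105780718 to 105847981, plus strand.

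Oscar, the costimulatory receptor, was at the edge of detection. It had 20 reads in MSC replicate 1, a value of 0.560, and 2 reads in TAC replicate 2, a value of 0.0719. The other 4 libraries had no read, so Oscar was under the mean required for testing, and with no filter its log2 fold change was -0.19 (limma adjusted p 0.831). Oscar lies on chromosome 7, 3609813 to 3616157, minus strand.

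Nfatc1, the transcription factor that drives the resorption genes, is also used outside the osteoclast lineage, for example in endothelial cells. Its values were 15.96, 15.5 and 45.2 in the 3 MSC libraries, against 12.5, 11.2 and 0.940 in the TAC libraries. The groups did not overlap, but the gap between them in replicates 1 and 2 was small and most of the difference lay in replicate 3, with 6796 reads in MSC and 247 in TAC. The MSC libraries averaged 25.6 ± 17.0 (SD, n = 3) and the TAC libraries 8.23 ± 6.35 (SD, n = 3). Nfatc1 differed by a log2 fold change of -1.78 (SE 0.83, limma adjusted p 0.465), which amounted to -0.38 within replicates 1 and 2 against -4.58 within replicate 3. Leaving out MSC replicate 3 gave -1.29, and leaving out TAC replicate 3 gave -0.87. Nfatc1 did not pass in any of 17 alternatives, with adjusted p-values of 0.0649 to 0.75. It lies on chromosome 18, 80606205 to 80713071, minus strand, and overlaps the antisense gene AC123818.1. The use of strand in counting is not given in the sources used here, so reads of overlapping genes cannot be told apart.

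The levels of the resorption genes overlapped between the regions. Ctsk, the collagen-degrading protease cathepsin K, was 10.9, 10.8 and 33.6 in the 3 MSC libraries, against 9.79, 12.5 and 18.8 in the TAC libraries. Acp5, the tartrate-resistant acid phosphatase TRAP, was 2.72, 2.52 and 7.18 in the 3 MSC libraries, against 2.43, 3.09 and 4.21 in the TAC libraries. In both genes replicate 3 was the highest library of its group, and the groups overlapped. Ctsk averaged 18.4 ± 13.1 (SD, n = 3) in MSC libraries and 13.7 ± 4.62 (SD, n = 3) in TAC libraries, a log2 fold change of -0.25 (SE 0.52, limma adjusted p 0.912). That of Acp5 was 4.14 ± 2.63 (SD, n = 3) and 3.24 ± 0.899 (SD, n = 3), with a log2 fold change of -0.18 (SE 0.56, limma adjusted p 0.945). The summed level of 15 macrophage markers was 124 to 293 in MSC and 63.9 to 147 in TAC, highest in replicate 3 of each group. In replicates 1 and 2 the log2 fold changes were 0.023 for Ctsk and 0.050 for Acp5.

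Although both levels varied between libraries, the value of Ctsk was 4.02 to 4.68 times that of Acp5 in every library. It was 4.02, 4.30 and 4.68 in the MSC libraries and 4.03, 4.05 and 4.46 in the TAC libraries, highest in replicate 3 of each group. The groups overlapped in this ratio. How many other pairs of genes kept as steady a ratio was not examined. Neither gene was among the 3 genes most like the other in pattern. Ctsk lies on chromosome 3, 95499256 to 95509362, plus strand, and Acp5 on chromosome 9, 22126727 to 22135711, minus strand, where it overlaps the transcript 6530413G14Rik on the opposite strand.

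**Figure D2:**
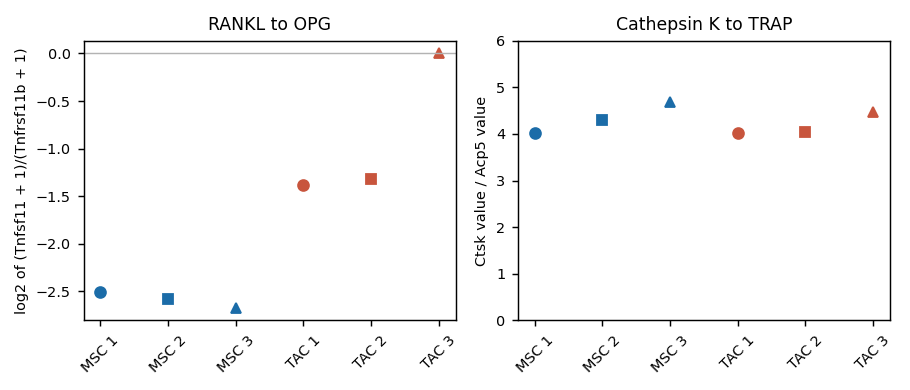
Ratios between genes within each library, with MSC in blue and TAC in red. On the left, the log2 ratio of Tnfsf11 to Tnfrsf11b (each value plus 1) lies at -2.67 to -2.51 in MSC and at -1.38 to 0.0 in TAC, and on the right, the ratio of the Ctsk to the Acp5 value lies at 4.02 to 4.68 in all 6 libraries.

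Atp6v0d2 encodes a subunit of the proton pump that acidifies the resorption space, and it is needed for the fusion of osteoclast precursors. Its values were 0.213, 0.261 and 6.26 in the 3 MSC libraries, from 7, 8 and 939 reads. In the TAC replicates 1 and 2 they were 0.0876 and 0.480, from 3 and 19 reads, and TAC replicate 3 had no read. A single library, MSC replicate 3, thus held nearly all of the signal and alone brought the gene past the mean required for testing. Atp6v0d2 differed by a log2 fold change of -0.93 (SE 0.78, limma adjusted p 0.705), and by 0.037 in replicates 1 and 2, and without MSC replicate 3 the gene was not tested. It lies on chromosome 4, 19876841 to 19922605, minus strand.

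**Figure D3:**
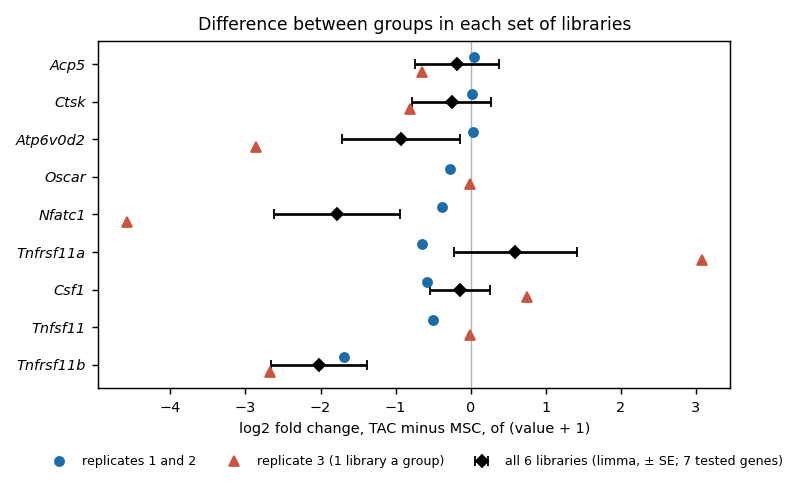
Log2 fold change, TAC minus MSC, of (value + 1) for the 9 genes: black diamonds with SE are the limma fit of all 6 libraries (7 tested genes), blue circles replicates 1 and 2, red triangles replicate 3. Tnfrsf11b lies at -1.69 in replicates 1 and 2 and at -2.67 in replicate 3, whereas Csf1, Tnfrsf11a, Acp5, Ctsk and Atp6v0d2 lie on opposite sides of 0 in the 2 sets.

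Of the 9 genes, 7 were tested. Adjusted over all genes, 0 of the 7 passed in limma, where 0.422% of the 15391 genes tested passed (65 genes, and 229 or 1.49% with the replicate block, where again 0 of the 7 passed). At an unadjusted p under 0.05 there was 1, Tnfrsf11b, where 11.9% of genes tested had such a p. Without MSC replicate 1 there was 0, and Tnfrsf11b had an unadjusted limma p of 0.0628. With limma voom on the estimated reads 0 passed, where 0.149% of genes did, and 2, Nfatc1 and Tnfrsf11b, had an unadjusted p under 0.05, where 23.2% of genes did. The groups did not overlap for Nfatc1 and Tnfrsf11b, both higher in MSC, as for 12.2% of genes tested, and for 0 of the 7 with TAC higher, as for 12.3% of genes tested. With 7 genes tested, these counts rest on 1 or 2 genes.

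Divided by the length of their exons, the levels could be set in an order. In MSC, Ctsk was highest, with a mean of 12.2 ± 8.66 (SD, n = 3) per kilobase, and no library of the next gene reached its range. Nfatc1, Csf1, Tnfrsf11b and Acp5 followed at 3.42, 3.23, 2.69 and 2.04 per kilobase, each overlapping its neighbour. Atp6v0d2, Tnfrsf11a, Tnfsf11 and Oscar were at 0.826, 0.345, 0.199 and 0.107 per kilobase, again with overlap between neighbours. This order rested in part on MSC replicate 3: without replicate 3, Csf1 and Tnfrsf11b came before Nfatc1, at 3.46, 3.07 and 2.11 per kilobase, and Atp6v0d2 came last, at 0.0873. In TAC, Ctsk was highest at 9.06 ± 3.06 (SD, n = 3) per kilobase, and the ranges below it overlapped from each gene to the next. There Csf1 and Acp5 came before Nfatc1, at 3.10, 1.598 and 1.10 per kilobase, and Tnfrsf11b, at 0.462 per kilobase, came after Tnfrsf11a, at 0.607. Both of these places turned without TAC replicate 3, when Nfatc1 was at 1.59 and Acp5 at 1.36 per kilobase, and Tnfrsf11b at 0.692 and Tnfrsf11a at 0.285. Ctsk and then Csf1 stayed highest in TAC. RANKL stood below its decoy per kilobase in both groups, at 0.199 against 2.69 in MSC and at 0.0466 against 0.462 in TAC, though in TAC replicate 3 neither had a read.

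The genes whose pattern over the 6 libraries was most like that of each member were found by the root mean square difference of their centred log2 levels, among 12909 genes. For Tnfrsf11b these were Dennd3, Prr16 and Cebpb, with differences of 0.164, 0.182 and 0.187. Cebpb, for example, was 15.5, 13.4 and 11.1 in the 3 MSC libraries, against 4.35, 3.16 and 1.11 in the TAC libraries. For Csf1 they were C1qa, Chpf and Epm2a, at 0.0749 to 0.0924, and C1qa, a complement gene of macrophages, was 10.02, 9.74 and 7.39 in the MSC libraries, against 6.59, 6.33 and 14.8 in the TAC libraries. For Acp5 they were Gimap4, Rabl2 and Atg4b, for Ctsk Cep97, Eif2b2 and Pfdn5, for Atp6v0d2 Elf3, Nmbr and Fam229b, for Nfatc1 Btbd8, Mtcp1 and Eif2ak2, and for Tnfrsf11a Zfp429, Sfrp4 and Zfp82, with differences between 0.0563 and 0.241. With 6 libraries and replicate 3 apart, such likeness is a description only.

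The wider pathway was read from lists of genes, beside a median log2 fold change of 0.026 over all genes tested. Of all genes tested, 6.43% had an unadjusted p under 0.05 with higher levels in MSC and 5.42% with higher levels in TAC. Of 18 other genes of the resorption machinery 17 were tested, and 1 rose in TAC. This was Car2, the carbonic anhydrase that supplies protons to the pump and that many other cells also make. It was 15.1, 8.66 and 9.59 in the 3 MSC libraries, against 53.0, 56.7 and 77.9 in the TAC libraries, a log2 fold change of 2.41 (SE 0.33, limma adjusted p 0.0413). Car2 passed in 9 of 17 alternatives and lost its call without any 1 library other than MSC replicate 3. The median of the list was -0.21. Chosen after their values were seen, Mmp9, a gelatinase of osteoclasts and other cells, and Itgb3, the beta subunit of the osteoclast attachment integrin, had an unadjusted p under 0.05 with higher levels in MSC. Mmp9 was 16.7, 18.1 and 21.3 in the 3 MSC libraries, against 4.99, 4.32 and 1.05 in the TAC libraries (log2 fold change -2.28, limma adjusted p 0.156). Itgb3 was 4.10, 4.64 and 17.3 in the MSC libraries, against 1.62 and 1.08 in TAC replicates 1 and 2, with no read in TAC replicate 3 (log2 fold change -2.20, limma adjusted p 0.285).

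Genes of late and fused osteoclasts were few. Of 8 examined 4 were listed, and Dcstamp, Ocstamp, Calcr and Siglec15 were not, so they are not analysed here. Each listed gene of the table had 10 or more reads in some library. The 4 tested were Cd47, Adam8, Mst1r and Cd9, none of which is particular to osteoclasts, and 0 passed in limma, with 1 at an unadjusted p under 0.05. This was Cd47, at -0.94 (adjusted p 0.298).

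In the RANK and ITAM signaling list, which holds the adaptors, kinases and transcription factors between the receptors and NFATc1, all 25 genes were tested and 0 passed in limma. With unadjusted p under 0.05 there were 2, both higher in MSC, and the median log2 fold change was -0.24. These were Plcg2, the phospholipase that raises calcium, and Relb, a subunit of noncanonical NF-kB. Plcg2 was 10.02, 8.87 and 12.6 in the 3 MSC libraries, against 3.04, 2.59 and 3.61 in the TAC libraries, a log2 fold change of -1.49 (SE 0.44, limma adjusted p 0.242). Its groups did not overlap, and its difference was -1.45 in replicates 1 and 2 and -1.57 in replicate 3. Relb differed by -1.50, and Rela and Nfkb2 by -1.001 and -0.82, with limma adjusted p-values of 0.343, 0.427 and 0.444.

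Of 12 transcription factors and repressors of the lineage 11 were tested and 0 passed in limma. Eomes is not analysed here. Spi1, which encodes the myeloid factor PU.1, was 3.09, 3.19 and 9.06 in the 3 MSC libraries, against 0.744, 1.53 and 0.140 in the TAC libraries (log2 fold change -1.70, SE 0.62, limma adjusted p 0.343). Prdm1, the repressor BLIMP1, was 8.42, 11.2 and 3.86 in the 3 MSC libraries, against 31.1, 32.0 and 14.5 in the TAC libraries (1.63, SE 0.50, limma adjusted p 0.264). These 2 had an unadjusted p under 0.05 and groups that did not overlap, in opposite directions. Bcl6 and Nr4a1 differed by -1.19 and -1.08, with limma adjusted p-values of 0.528 and 0.574. The list had a median of -0.36, which was -0.77 within replicates 1 and 2 but 0.57 within replicate 3.

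In the CSF1 axis, 3 of 6 genes were tested, Csf2 and Csf3 are not analysed here, and 0 passed in limma or had an unadjusted p under 0.05. The CSF1 receptor Csf1r was 24.7, 24.2 and 49.0 in the 3 MSC libraries, against 13.7, 13.7 and 23.02 in the TAC libraries. Its groups did not overlap, with a log2 fold change of -0.88 (SE 0.40, limma adjusted p 0.450). Csf2ra and Csf2rb, receptor chains for a related growth factor, differed by -0.72 and -0.74 (limma adjusted p 0.643 and 0.616). Il34, the other ligand of the CSF1 receptor, had values of 1.45 or less and was not tested.

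Of 31 stromal regulators of RANKL and OPG, such as parathyroid hormone, interleukin 6 family and prostaglandin receptors, 23 were tested. In limma 1 fell in TAC, and 6 had an unadjusted p under 0.05 and lower levels in TAC, against 0 in the other direction. The median log2 fold change was -0.32. The gene that passed was Cxcl12, a chemokine that attracts precursors from blood and marrow, at 125, 129 and 203 in the 3 MSC libraries, against 12.98, 12.3 and 11.6 in the TAC libraries. This was a log2 fold change of -3.49 (SE 0.29, limma adjusted p 0.00876). Cxcl12 passed in 13 of 17 alternatives and lost its call when replicate 1 or 2 of either group was left out, and then 0 genes passed in all and the adjusted p of Cxcl12 was 0.0665 to 0.0825. The other 5, named after their values were seen, were Osmr, Pthlh, Il1r1, Lifr and Lgr4, with log2 fold changes of -2.54, -1.66, -1.54, -1.22 and -1.0 and limma adjusted p-values of 0.159 to 0.357. Lgr4 is a further receptor for RANKL, and PTHLH is a ligand that raises RANKL in the dental follicle during tooth eruption. In 9 of the 23 tested genes, these 6 included, the groups did not overlap with MSC higher, against 12.2% of all genes tested. With TAC higher this held for 0 of the 23, against 12.3% of all genes tested.

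**Figure D4:**
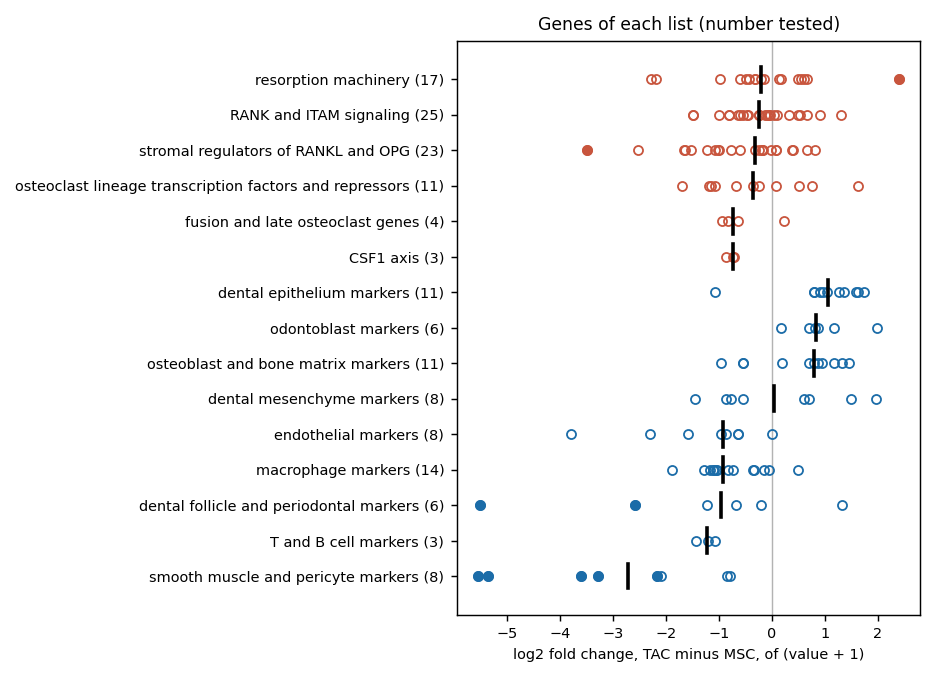
Log2 fold change, TAC minus MSC, of (value + 1) for each tested gene of the pathway lists (red) and cell type marker lists (blue), with the number tested in brackets, filled circles for limma adjusted p under 0.05 and a black bar at the median. Car2 stands alone at 2.41 among the resorption genes, Cxcl12 at -3.49 among the stromal regulators, and the smooth muscle and pericyte markers have a median of -2.73.

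Markers of other cell types in the captured regions were read in the same way. All 8 smooth muscle and pericyte markers were higher in every MSC library than in any TAC library, and 5 of them, Acta2, Myh11, Tagln, Rgs5 and Notch3, fell in TAC (limma adjusted p 0.0337 to 0.0491), each of them in 5 to 11 of 17 alternatives. With the replicate block Acta2 lost its call (limma adjusted p 0.0701), and Myh11, Tagln, Rgs5 and Notch3 kept theirs. Of the 8 endothelial markers 0 passed in limma and 4 had an unadjusted p under 0.05, with a summed level of 261 to 266 in MSC and 82.5 to 105 in TAC. Of the 14 macrophage markers tested 0 passed in limma and 3 had an unadjusted p under 0.05, namely Mrc1, Ptprc and Laptm5, at -1.90, -1.17 and -1.10. The list had a median log2 fold change of -0.94, which was -0.88 within replicates 1 and 2 and -0.91 within replicate 3. The groups did not overlap for 7 of the 14 with MSC higher and for 0 with TAC higher, against 12.2% and 12.3% of genes tested. Adgre1 had no read in MSC replicate 3, and each of the other macrophage markers had reads in every library. The part of these cell types in the levels of Nfatc1, Csf1r, Cxcl12, Ctsk or Acp5 was not tested.

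The bone matrix and osteoblast list, whose cells are a usual source of RANKL and OPG, had 11 tested genes, of which 0 passed in limma or had an unadjusted p under 0.05. Its median log2 fold change was 0.80, that within replicates 1 and 2 0.16 and that within replicate 3 1.76. The lowest p was that of Runx2, the factor that starts osteoblast formation, at 167.5, 182 and 49.7 in the MSC libraries, against 56.9, 63.6 and 54.5 in the TAC libraries (limma adjusted p 0.510). Odontoblast and dental epithelium markers had medians of 0.83 and 1.05, which were 0.31 and 0.58 within replicates 1 and 2 and 1.87 and 2.93 within replicate 3, with 0 of 6 and 0 of 11 genes past the threshold and 1 and 2 with an unadjusted p under 0.05. Of the dental follicle and periodontal markers 2 of 6 tested, Smoc2 and Igf2, fell in TAC (limma adjusted p 0.00876 and 0.0389). They passed in 13 and 12 of 17 alternatives, and both lost their call when replicate 1 or 2 of either group was left out, with adjusted p-values of up to 0.0795 and 0.242.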

How the data were processed

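RNA from 3 MSC and 3 TAC samples was sequenced as single-end reads. The authors trimmed the reads and aligned them to mm10 with TopHat (TopHat2 2.0.8 by the submitters' processing notes, which also name CASAVA 1.8.2 and Partek). Their methods name RPKM, but the deposited values behave as a signal: an estimated read number plus 1, divided by 1 size factor per library, with gene length not divided out. The third quartile was 15.6 in every library. Read numbers were recovered by dividing each value by the smallest in its library and subtracting 1. Of values between 1 and 200 reads, 63.7% to 71.0% per library were whole within 0.01, so no count model was used, other than limma voom as an alternative. The counting tool is not given in the sources used here.

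With limma 3.58.1 in R 4.3.3, using a mean-variance trend, a model was fitted to log2(value + 1) of 15391 genes with a mean of at least 1, TAC minus MSC, two-sided, with Benjamini-Hochberg adjusted p under 0.05 as the threshold. Adding 1 makes fold changes of weakly read genes too small. The design assumed RPKM, and the log-scale test suits this unit too. The fit was tested on simulated data. Deviations of same-numbered samples from their group means correlated across genes at 0.477, 0.465 and 0.517, but replicates 1 and 2 crossed gave 0.462 and 0.480. The shared part was thus mainly replicate 3 against the others, and a pairing of replicates 1 and 2 by number was not shown. Alternatives were another pseudocount, filter, scaling, variance model, the replicate block, a batch term, library subsets and voom. The ratio of Tnfsf11 to Tnfrsf11b within replicate 3 and the order per kilobase without replicate 3 were added after seeing the data. The ratio of Ctsk to Acp5 was not among the planned results.

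The 9 genes and the lists were chosen with earlier results of these data known. The rule for named list genes took those past the threshold, or else the 4 with the lowest p, and for marker lists also the 3 with the highest mean. Of these the text gives a part, and list genes it names outside the rule (among them Mmp9, Itgb3, Il34, Cd3e, Cd2 and Ccl2) were chosen after their values were seen. Coordinates are 1-based, from GENCODE M21, and match the table for all 9 genes once its end is lowered by 1. Promoter sequences are from RefSeq. One item is not reported here.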

Additional observations from a re-analysis of the deposited data

How the results depend on the processing

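The number of genes past the adjusted threshold, 65, was 43 with a pseudocount of 0.5, 29 with no variance trend, 23 with voom, 229 with the replicate block, 1814 with replicate 3 against the others as a batch term and 6796 with replicates 1 and 2 only, and 0 to 280 with 1 library left out (280 without MSC replicate 3, 20 without TAC replicate 3 and 0 without any other). The number among the 9 genes, 0, was 2 with replicates 1 and 2 only (Csf1 and Tnfrsf11b) and 1 with the batch term (Tnfrsf11b), and 0 in the other 15 alternatives. The replicate block changed no call among the 9 genes, with an adjusted p of 0.0946 for Tnfrsf11b. The log2 fold changes of Nfatc1 and Tnfrsf11b were below 0 in every alternative in which they were tested, but their size ran from -3.97 (voom) to -0.38 (replicates 1 and 2 only) for Nfatc1 and from -7.57 (voom) to -0.993 (pseudocount 5) for Tnfrsf11b. Voom gave 6.29 for Tnfrsf11a and -6.55 for Atp6v0d2. The direction of the other tested genes reversed: Acp5 to 0.0505, Ctsk to 0.0233, Atp6v0d2 to 0.0366 and Tnfrsf11a to -0.643 with replicates 1 and 2 only, and Csf1 to 0.0848 with voom. With 1 library left out, Acp5 ran from -0.399 to 0.209, Ctsk from -0.512 to 0.261 and Tnfrsf11a from -0.076 to 1.08, each reversed without MSC replicate 3, and Csf1 ran from -0.488 to 0.093, reversed without TAC replicate 2. The cause was not tested. The difference in the ratio of Tnfsf11 to Tnfrsf11b takes its sign from Tnfrsf11b, so its alternatives say nothing more. Fits with a mean of at least 10 did not test Acp5, Atp6v0d2, Tnfrsf11a and Tnfrsf11b. Low reads limit Tnfsf11 and Oscar most.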

Other observations

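MSC replicate 3 held high values of some genes that were low in every other library, as it did for Atp6v0d2. Elf3 and Nmbr, the genes most like Atp6v0d2 in pattern, were 5.90 and 5.68 there, and at most 0.288 and 0.312 elsewhere. The T cell genes Cd3g and Lck were 14.9 and 8.79 in MSC replicate 3, and at most 0.638 and 1.30 in the other 5 libraries. The T cell genes Cd3e and Cd2 had no read in MSC replicate 3. Tyrobp, Trem2 and Adgre1, from the ITAM signaling and macrophage lists, had no read there either, but had reads in each of the other 5 libraries. The monocyte chemokine Ccl2 was 15.2 in MSC replicate 3 and at most 0.693 elsewhere. The limma adjusted p-values of Cd3g, Lck and Ccl2 were 0.631, 0.589 and 0.571, so these genes did not pass.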
